A study of Mus musculus with 4 samples.

Results

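The circadian clock genes examined here were Per1, Per2, Per3, Cry1, Cry2, Nr1d1, Nr1d2, Dbp, Clock and Arntl, which encodes BMAL1. Every merged FoxO1 region whose deposited gene list held 1 of these 10 symbols was taken, whatever its values. This gave 39 of the 16126 regions in the table, and each of the 10 genes had at least 1. Positions are given in mm10, and each distance runs from the midpoint of a region to the gene's start.

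Insulin signalling keeps FoxO1, a transcription factor of the forkhead family, out of the nucleus, and its chromatin association was measured by chromatin immunoprecipitation and sequencing (ChIP-seq). Hearts came from wild-type male C57BL/6 mice aged 12 weeks, and the treatments lasted 7 days. The Veh/Sham mice had daily vehicle injections together with a sham operation. The Iso mice had subcutaneous isoproterenol, a beta-adrenergic agonist, at 3 mg/kg per day, and the TAC mice had transverse aortic constriction, which loads the left ventricle with pressure. The labels name no sham operation for the Iso mice and no vehicle for the TAC mice. Drosophila chromatin was added to all libraries as a spike-in. Each condition had 1 library from a pool of 3 hearts, so there was no spread between replicates and no test, and each difference below is a difference between 2 libraries. In heart tissue of mixed cells, fewer cells of a type and less binding per cell cannot be told apart. The table holds no expression values with which to check the tissue label, and nothing in the sources used here gives the time of day at which hearts were taken. Over all regions the median of the mean signal was 8.71 (Veh/Sham), 11 (Iso) and 13.96 (TAC), in the deposited signal units.

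CLOCK and BMAL1 form a dimer that binds E-boxes and drives Per, Cry, Nr1d and Dbp genes. The PER and CRY proteins repress that dimer and so close the main loop. REV-ERB alpha and beta, from Nr1d1 and Nr1d2, repress Arntl through elements that ROR receptors also bind, and DBP activates genes through D-boxes. In the heart this clock times metabolism, contraction and ion channel expression.

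RefSeq promoter windows were set beside the FoxO1 regions. Windows of 300 bases, from 250 before to 50 after a start (GRCm38.p6), were held for 9 of the 10 members, 13 windows in all. A region listed for the member overlapped 11 of the 13 windows, with at least 1 for each of the 9 genes, and 9 windows lay wholly inside one. The share of all RefSeq windows that a region overlapped was not computed, so this overlap cannot be set against that of other genes. Some windows are shown because they hold the motif matches described next or, for Nr1d2, because its start had the highest Veh/Sham signal of the members' start regions, at chr11:69098699-69098998 (plus strand, Per1), chr4:151044616-151044915 (minus, Per3), chr10:85185005-85185304 (minus, Cry1), chr11:98775328-98775627 (minus, Nr1d1), chr14:18239057-18239356 (minus, Nr1d2) and chr7:113207261-113207560 (plus, Arntl). Capitals mark motif matches on either strand, and each sequence reads in the direction of transcription.
Per1: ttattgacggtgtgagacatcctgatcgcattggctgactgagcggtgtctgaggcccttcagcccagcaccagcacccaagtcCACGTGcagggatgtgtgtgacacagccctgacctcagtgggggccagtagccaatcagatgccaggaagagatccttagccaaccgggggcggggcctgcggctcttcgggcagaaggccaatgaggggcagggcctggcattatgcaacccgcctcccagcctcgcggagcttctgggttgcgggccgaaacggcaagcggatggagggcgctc
Per3: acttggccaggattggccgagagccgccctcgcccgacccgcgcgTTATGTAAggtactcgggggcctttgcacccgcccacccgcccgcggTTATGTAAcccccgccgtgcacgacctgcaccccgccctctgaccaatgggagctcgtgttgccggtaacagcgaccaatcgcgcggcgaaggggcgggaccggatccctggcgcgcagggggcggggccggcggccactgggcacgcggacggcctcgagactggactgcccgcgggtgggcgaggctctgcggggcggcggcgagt
Cry1: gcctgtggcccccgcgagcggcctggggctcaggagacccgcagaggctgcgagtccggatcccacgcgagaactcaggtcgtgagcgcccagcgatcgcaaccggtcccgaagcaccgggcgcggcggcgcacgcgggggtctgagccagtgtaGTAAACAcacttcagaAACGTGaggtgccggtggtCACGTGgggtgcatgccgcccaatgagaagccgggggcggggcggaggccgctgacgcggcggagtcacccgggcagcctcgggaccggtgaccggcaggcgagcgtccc
Nr1d1: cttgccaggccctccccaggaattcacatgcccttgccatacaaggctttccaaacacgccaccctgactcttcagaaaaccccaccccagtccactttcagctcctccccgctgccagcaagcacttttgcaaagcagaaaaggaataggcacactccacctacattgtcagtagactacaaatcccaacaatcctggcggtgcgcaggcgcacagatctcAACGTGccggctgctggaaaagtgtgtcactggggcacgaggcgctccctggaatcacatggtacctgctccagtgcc
Nr1d2: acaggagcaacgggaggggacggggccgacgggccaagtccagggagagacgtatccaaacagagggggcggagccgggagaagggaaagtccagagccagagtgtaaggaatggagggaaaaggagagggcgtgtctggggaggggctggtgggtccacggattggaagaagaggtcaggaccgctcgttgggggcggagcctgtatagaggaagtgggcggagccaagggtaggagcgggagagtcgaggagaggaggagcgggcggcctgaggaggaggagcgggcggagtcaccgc
Arntl: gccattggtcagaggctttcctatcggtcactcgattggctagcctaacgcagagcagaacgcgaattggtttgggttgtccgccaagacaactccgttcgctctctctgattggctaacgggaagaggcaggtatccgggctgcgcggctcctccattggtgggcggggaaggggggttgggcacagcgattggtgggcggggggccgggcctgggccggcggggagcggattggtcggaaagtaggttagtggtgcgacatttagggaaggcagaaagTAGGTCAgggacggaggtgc

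The forkhead core TGTTTAC was found in 1 of the 9 genes, Cry1, 95 bp before its start, and in 3.65% of all 32851 promoter windows in RefSeq. The Cry1 window also held the E-box CACGTG 60 bp and the E-prime box CACGTT 79 bp before the start. Per1 held an E-box 166 bp before its start. E-boxes were present in 7.15% and E-prime boxes in 4.68% of all windows, and the latter were also in Cry2 and Nr1d1. Per3 held 2 D-boxes (TTANGTAA, in 2.32% of all windows), 205 and 158 bp before its start. Arntl held the Rev-erb and ROR element TAGGTCA (2.61% of all windows) 31 bp after its start, in the later of its overlapping windows. The cyclic AMP response element TGACGTCA (1.79% of all windows) was in none of the 13 member windows, although its part TGACG, present in 20.8% of all windows, was in those of Per1, Cry1 and Cry2. The windows of Nr1d2, Dbp and Clock held none of the 6 full motifs. These matches describe letters in short windows and say nothing of whether FoxO1 or a clock protein bound them.

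The clock regions were often long. Of the 39, 10 (25.6%) were at least 1000 bp, against 8.38% of all regions, and 3 were among the 20 regions of at least 3000 bp in the whole table. The Nr1d1 promoter region (chromosome 11, 98773608 to 98777453) was the 6th longest of all at 3845 bp. The Per1 promoter region (chromosome 11, 69096724 to 69100345) was the 9th longest at 3621 bp, and the Dbp promoter region (chromosome 7, 45703790 to 45706893) was the 17th longest at 3103 bp. Region ends were set by merging calls over all libraries of the table, including 2 that were not used here, so the lengths belong to no single condition.

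The regions were spread unevenly over the genes. Per1, Per2 and Dbp had 7 each, Cry2 had 6, Nr1d1 5, Cry1 and Arntl 2, and Per3, Nr1d2 and Clock 1. Having 7 regions was unusual, since 97.8% of the 11718 gene symbols in the table had fewer. In 27 of the 39 the member was the nearest gene listed, and in 12 another gene was nearer, such as Vamp2, Hes6, Sphk2 or Hes7. In 28 the list held more than 1 gene (71.8%, against 36.8% of all regions). Regions within 1000 bp of a member's own start numbered 12, and 16 lay that close to the start of some listed gene (41.0%, against 54.0% of all regions). A CpG island overlapped 20 (51.3%, against 54.1%).

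The authors called an interval in all 3 libraries at 14 of the 39 regions, where the background share was 22.1%, and in none at another 14, where it was 30.5%. By library they called 19 in Veh/Sham (background 49.1%), 18 in Iso (36.0%) and 19 in TAC (45.0%). Per3 and Clock had no called region in any of the 3 libraries.

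**Figure D1:**
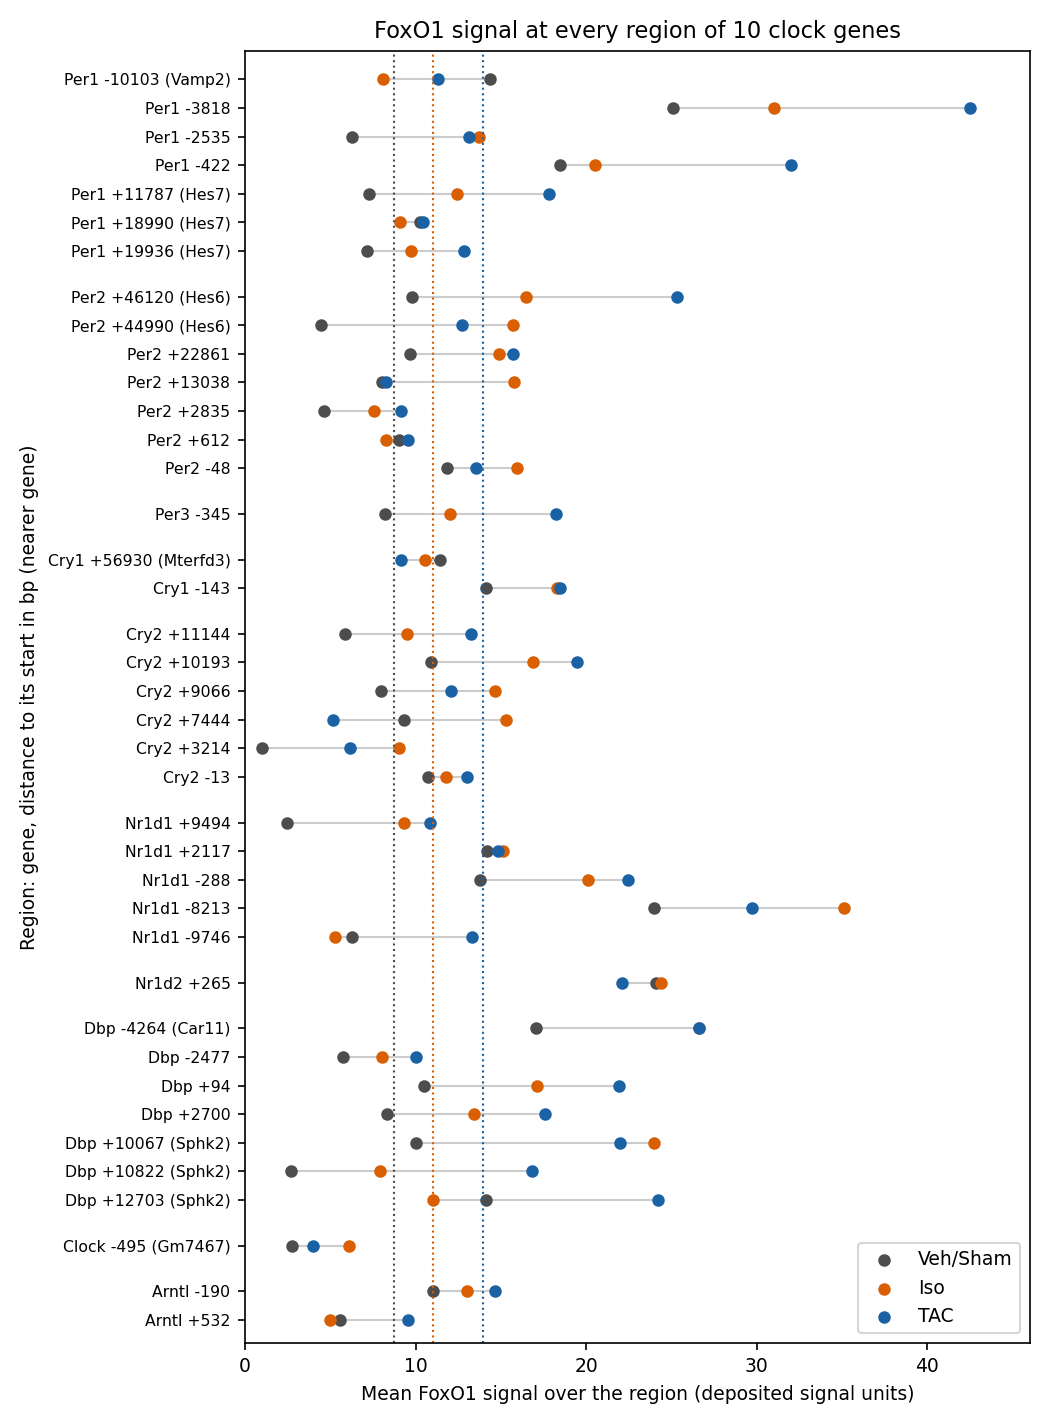
Mean FoxO1 signal (horizontal axis, deposited units) at each of the 39 regions, named by gene and distance in bp to its start, with a nearer gene in parentheses; points are the 3 libraries and dotted lines their medians over all regions. The region 3818 bp upstream of Per1 reached 42.5 in TAC, and that of Clock stayed below every median.

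Among the activators, Clock had low signal in all 3 libraries and Arntl a moderate level. The single Clock region (chromosome 5, 76304837 to 76305249) lay 495 bp upstream of the Clock start and overlapped Gm7467, a long non-coding RNA gene nearer to it. Its mean signal was 2.77 (Veh/Sham), 6.08 (Iso) and 4 (TAC), and its peak depths, the highest coverage in the region, were 5, 11 and 7. Of all regions, 4.51%, 15.9% and 2.23% read lower in the respective library. The Arntl promoter region (chromosome 7, 113206902 to 113207649) read 11.0 (Veh/Sham), 13 (Iso) and 14.7 (TAC), and was called in Veh/Sham and TAC. Its log2 ratios over Veh/Sham, 0.22 for Iso and 0.38 for TAC, were below the medians of all regions (0.30 and 0.59). The Arntl region 532 bp inside the gene was called in none and read 5.57, 5 and 9.57.

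Among the Period genes, which encode the repressors, Per1 held the strongest signal of the 39 regions in Veh/Sham and TAC. The region 3818 bp upstream of the deposited Per1 start (chromosome 11, 69094179 to 69096097) read 25.1 (Veh/Sham), 31.0 (Iso) and 42.5 (TAC). It was above 98.1%, 98.4% and 99.7% of all regions and was called in all 3 libraries. It also covered the outermost 5′ end of the RefSeq Per1 gene model, at 69095108. The promoter region of Per1 read 18.5, 20.5 and 32.0, above 95.2%, 91.6% and 98.3% of all regions. Between them a short region 2535 bp upstream, called in none, read 6.29, 13.7 and 13.1.

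Per2 carried lower signal, spread over its gene. Its promoter region (chromosome 1, 91458972 to 91459781) read 11.8 (Veh/Sham), 16.0 (Iso) and 13.6 (TAC), with Iso highest. A region 22861 bp inside the gene read 9.68, 14.9 and 15.7, and both were called in all 3 libraries. A region 13038 bp inside the gene, called in Iso alone, read 8, 15.75 and 8.25. Its peak depths were 12, 20 and 11, and the Iso to Veh/Sham ratio of 1.67 had an exact 95% counting interval of 0.78 to 3.74. The other regions with Per2 nearest, 2835 and 612 bp inside the gene, were called in none and read between 4.61 and 9.57. Per3, whose single region (chromosome 4, 151044818 to 151045117) lay 345 bp upstream, read 8.22, 12 and 18.2, with peak depths of 10, 17 and 22. The TAC to Veh/Sham ratio of these depths was 2.20 (exact 95% counting interval 0.9997 to 5.20). The region overlapped Gm38529, a neighbouring gene model, and 98 bases of the Per3 window.

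The cryptochromes, the partners of PER in repression, each had a promoter region called in all 3 libraries. That of Cry1 lay at chromosome 10, 85184953 to 85185442, over the forkhead core and E-box matches shown above. That region read 14.1 (Veh/Sham), 18.3 (Iso) and 18.4 (TAC). Its log2 ratios over Veh/Sham, 0.35 and 0.36, stood against medians of 0.30 and 0.59 for all regions. At Cry2 the promoter region (chromosome 2, 92433482 to 92434682) read 10.7, 11.8 and 13.0, with peak depths of 17, 25 and 30. A region 10193 bp inside the gene, called in Iso and TAC, had higher means of 10.9, 16.9 and 19.4 but lower peak depths of 14, 20 and 24.

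The inner Cry2 regions held the highest Iso to Veh/Sham ratio of the 39 regions (log2 2.32, at 3214 bp) and the lowest TAC to Iso ratio (log2 -1.41, at 7444 bp). A region 7444 bp inside the gene (chromosome 2, 92426513 to 92426737), called in Iso alone, read 9.29 (Veh/Sham), 15.3 (Iso) and 5.14 (TAC). Its peak depths were 11, 19 and 7, and the TAC to Iso ratio of 0.37 had an exact 95% counting interval of 0.13 to 0.92. A region 3214 bp inside the gene, called in none, read 1, 9 and 6.17. It rested on peak depths of 1, 11 and 9, so its Iso to Veh/Sham ratio of 11.0 had a counting interval of 1.60 to 473.5. The regions 9066 and 11144 bp inside the gene read 7.96 and 5.88 in Veh/Sham, 14.6 and 9.5 in Iso, and 12.1 and 13.25 in TAC. All of the inner Cry2 regions also lay in D930015M05Rik, a long non-coding RNA gene that overlaps Cry2.

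In Veh/Sham the REV-ERB genes came next to Per1 in mean signal. The strongest Nr1d1 region (chromosome 11, 98782645 to 98784266) lay 8213 bp upstream of its start and overlapped the long non-coding RNA gene Gm31862. It read 24.0 (Veh/Sham), 35.1 (Iso) and 29.7 (TAC), and was called in all 3 libraries. Its peak depths were 99, 130 and 76. The TAC to Iso ratio of these depths was 0.58 (exact 95% counting interval 0.43 to 0.78), whereas depths summed over all regions had a ratio of 1.125. By mean signal the difference was smaller (log2 -0.23) and within 1.5-fold. The Nr1d1 promoter region read 13.8, 20.1 and 22.4, and 2117 bp inside the gene a short region read 14.2, 15.1 and 14.8. The regions 9494 bp downstream and 9746 bp upstream, called in none, read 2.43 and 6.29 in Veh/Sham, 9.29 and 5.29 in Iso, and 10.9 and 13.3 in TAC. The former lay within Thra, the thyroid hormone receptor gene whose transcript overlaps Nr1d1 on the opposite strand.

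In the deposited units, Nr1d2 differed least between libraries among the 7 clock regions that reached a peak depth of 40. Relative to the shift shared by all regions, it was at least 1.5-fold lower in TAC than in Veh/Sham (log2 -0.70). Its single region over the start (chromosome 14, 18238137 to 18239546) read 24.1 (Veh/Sham), 24.4 (Iso) and 22.1 (TAC), with peak depths of 65, 62 and 56. It was above 97.9%, 95.95% and 89.4% of all regions and was called in all 3 libraries. Depth in TAC was 0.86 times that in Veh/Sham (exact 95% counting interval 0.59 to 1.25), below the 1.43 of depths summed over all regions. A set of 767 regions had at least as much Veh/Sham mean signal as the 4th highest clock region. Their median log2 TAC to Veh/Sham ratio was 0.19 by mean signal and 0.04 by peak depth. That of Nr1d2 was -0.12 by mean signal and -0.21 by peak depth, against 0.74 and 0.41 at the upstream region of Per1. For TAC over Iso by peak depth, the median of the 767 was -0.12, against -0.77 at the region 8213 bp upstream of Nr1d1.

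Dbp, the D-box activator, had signal along a stretch shared with its neighbours. The region over its start read 10.5 (Veh/Sham), 17.1 (Iso) and 21.9 (TAC), with peak depths of 19, 28 and 46. The TAC to Veh/Sham ratio of depths, 2.42, had an exact 95% counting interval of 1.39 to 4.38, which holds the 1.43 of depths summed over all regions. The adjoining region 2700 bp inside the gene read 8.33, 13.4 and 17.6, and a short one 2477 bp upstream, called in none, read 5.75, 8 and 10. All 3 regions had the order Veh/Sham, Iso, TAC, which is also the order of the medians over all regions. The highest Dbp region (chromosome 7, 45700156 to 45701810) lay 4264 bp upstream and nearer to the start of Car11. It read 17.0, 26.6 and 26.6, with peak depths of 46, 95 and 67. Its Iso to Veh/Sham ratio of depths was 2.07 (exact 95% counting interval 1.44 to 3.00), an interval above the 1.27 of depths summed over all regions.

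**Figure D2:**
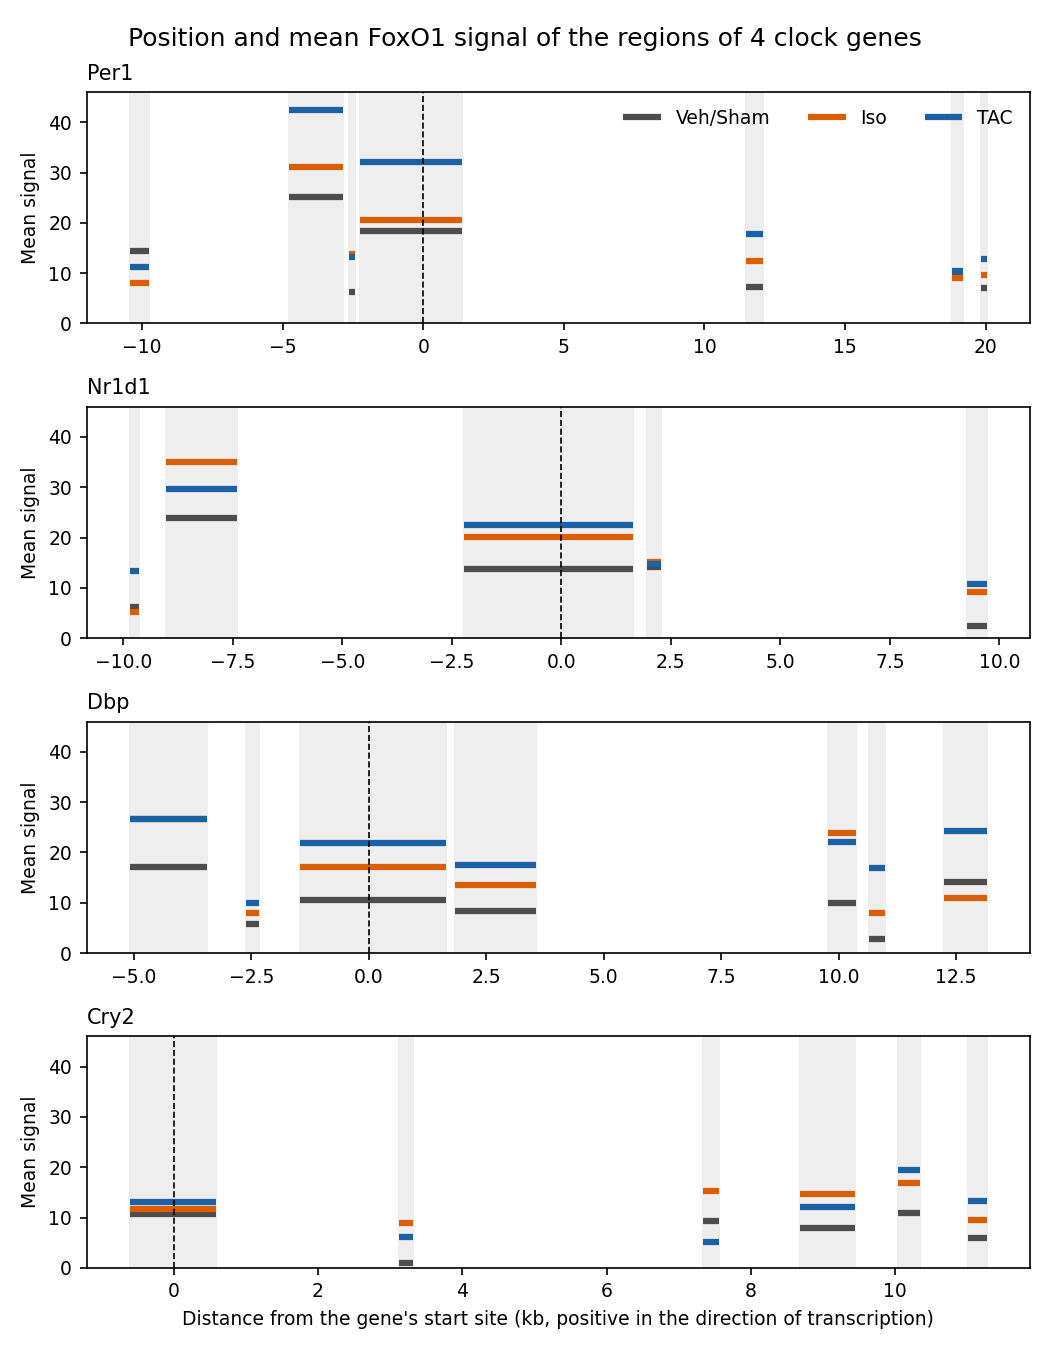
Regions of Per1, Nr1d1, Dbp and Cry2 by distance from the gene's start (kb, positive along transcription); grey bands are regions and horizontal lines their mean FoxO1 signal per library (deposited units). Long regions cover the starts of Per1, Nr1d1 and Dbp; at Dbp 4264 bp upstream, Iso and TAC both read 26.6 and the lines coincide.

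Another 10 regions, beside those near Gm7467 and Car11, were nearer to the start of another gene than to that of the member. At Per2, 2 regions lay downstream of the gene near the start of Hes6, a basic helix-loop-helix factor. The one 46120 bp from the Per2 start read 9.76 (Veh/Sham), 16.5 (Iso) and 25.3 (TAC), and the one at 44990 bp read 4.43, 15.7 and 12.7. Upstream of Per1, the region 10103 bp away lay over the start of Vamp2, a vesicle fusion protein, and read 14.4, 8.09 and 11.3. Its peak depths were 25, 13 and 15, an Iso to Veh/Sham ratio of 0.52 with an exact 95% counting interval of 0.24 to 1.06. Downstream of Per1, the region 11787 bp from its start overlapped the tRNA genes n-TTagt5 and n-TScga3 and read 7.25, 12.4 and 17.8. Another 2 regions near Hes7 read between 7.14 and 12.9. Downstream of Dbp, 3 regions lay near Sphk2 and Rpl18, a ribosomal protein gene. They read 10, 2.7 and 14.1 in Veh/Sham, 23.9, 7.91 and 11 in Iso, and 22, 16.8 and 24.2 in TAC, at 10067, 10822 and 12703 bp from the Dbp start. At Cry1 a region over the start of Mterfd3, 56930 bp from the Cry1 start, read 11.4, 10.6 and 9.14, with Veh/Sham highest.

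In Veh/Sham the order of the members by their highest mean signal in that library was Per1 (25.1), Nr1d2 (24.1), Nr1d1 (24.0), Dbp (17.0), Cry1 (14.1), Per2 (11.8), Arntl (11.0), Cry2 (10.9), Per3 (8.22) and Clock (2.77). Neighbours in this order had overlapping 95% counting intervals of peak depth, except Nr1d1 and Dbp (99 and 46). The Dbp value is that of the region nearer to Car11, and in Iso and TAC the highest Per2 value is that of the region over the Hes6 start. In Iso, Nr1d1 led with 35.1, followed by Per1 with 31.0, and all neighbours overlapped. In TAC, Per1 led with 42.5, and 4 neighbouring pairs had intervals that did not overlap, Per1 and Nr1d1 (125 and 76), Dbp and Per2 (67 and 31), Nr1d2 and Cry2 (56 and 24), and Arntl and Clock (27 and 7). Clock came last in each library.

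The comparison of Iso with Veh/Sham asks how FoxO1 signal at the clock genes stood after beta-adrenergic stimulation. By the rule of at least 1.5-fold in mean signal, with 1 added to both values, 18 of the 39 regions (46.2%) were higher in Iso and 1 (2.56%) was lower, that at Vamp2. Of all regions, 31.8% were higher and 7.99% lower. The median log2 ratio of the clock regions was 0.53, against 0.30 for all regions. Relative to that shared shift, 8 clock regions were 1.5-fold higher and 2 lower, where the shares of all regions were 17.8% and 16.1%. The 18 took in 5 of the 6 Cry2 regions, 4 of the 7 at Per2 and 5 of the 7 at Dbp. Of these, the Dbp regions 4264, 10067 and 10822 bp from its start were nearer to Car11 or Sphk2. The Per2 regions 46120 and 44990 bp from its start were nearer to Hes6. The promoter regions of Per1, Per2, Per3, Cry1, Cry2, Nr1d1, Nr1d2 and Arntl were all within 1.5-fold of Veh/Sham, while those at the starts of Dbp (log2 0.66) and Clock (0.91) were higher. That is 2 of 10 start regions (20.0%), and of all promoter regions 21.8% were higher. Among regions nearest to the member itself, 11 of 27 were higher and 0 lower.

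The comparison of TAC with Veh/Sham asks the same after pressure overload, and it shares the Veh/Sham library with the first. In TAC, 24 of the 39 regions (61.5%) were at least 1.5-fold higher and 1 (2.56%) was lower, the Cry2 region at 7444 bp. Of all regions, 50.2% were higher and 4.18% lower. The median log2 ratio was 0.70 for the clock regions and 0.59 for all regions. Relative to the shared shift, 6 were higher and 4 lower (18.4% and 17.0% of all regions), so these shares, 15.4% and 10.3%, were below the background. The 4 lower were the Nr1d2 region, the Cry2 region at 7444 bp, and the regions over the starts of Vamp2 and Mterfd3. All 7 Dbp regions were among the 24, with log2 ratios from 0.62 to 2.27, together with 5 of the 7 at Per1 and 4 of the 7 at Per2. Of these, 4 at Dbp, 2 at Per1 and 2 at Per2 were nearer to another gene. Among regions nearest to the member itself, 16 of 27 were higher and 1 lower. Relative to the shared shift, the region 10822 bp from the Dbp start, near Sphk2, was the 1 Dbp region that stayed 1.5-fold higher.

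TAC against Iso shares 1 library with each of the comparisons above. Here 6 of the 39 regions (15.4%) were at least 1.5-fold higher in TAC and 2 (5.13%) were lower, against 31.4% and 8.85% of all regions. The 6 were the Per1 promoter, the region over the Hes6 start listed for Per2, the short region 9746 bp upstream of Nr1d1, 2 near Sphk2 and Rpl18, and the inner Arntl region. The 2 lower regions were those inside Per2 at 13038 bp and inside Cry2 at 7444 bp. The median log2 ratio was 0.18, below the 0.29 of all regions. Across the libraries, Veh/Sham was lowest at 30 of the 39 regions (63.2% of all regions) and highest at 2 (10.1%). TAC was highest at 25 (63.1% of all regions) and Iso at 12 (26.9%). Iso and TAC were both at least 1.5-fold above Veh/Sham at 14 (23.6% of all regions).

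**Figure D3:**
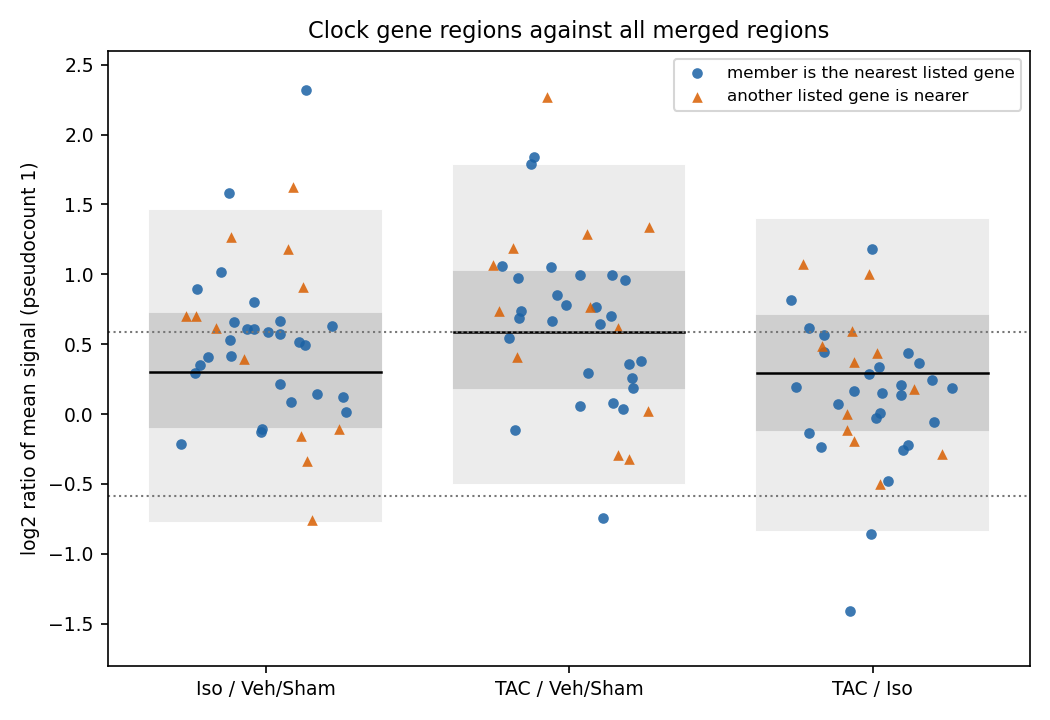
Log2 ratio of mean signal (pseudocount 1) at the 39 clock regions in each comparison; circles have the member as nearest listed gene, triangles another gene, and sideways spread within a column is for legibility. Grey boxes hold the central 50% and 90% of all regions, black lines their medians (0.30, 0.59 and 0.29), and dotted lines 1.5-fold.

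At some of the deepest clock regions the peak depth and the mean signal differed in direction between TAC and Veh/Sham. The Per1 promoter had a mean signal 1.70-fold that of Veh/Sham (log2 0.76), but its peak depths were 73 (Veh/Sham), 76 (Iso) and 64 (TAC). The TAC to Veh/Sham ratio of depths was 0.88 (exact 95% counting interval 0.62 to 1.24). Its peak depth was 3.96 times its mean in Veh/Sham, 3.71 times in Iso and 1.999 times in TAC. At the region 8213 bp upstream of Nr1d1 the same quotient was 4.13, 3.70 and 2.56, and at the region 3818 bp upstream of Per1 it was 3.75, 4.45 and 2.94. At Nr1d2 it was 2.70, 2.54 and 2.53.

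A lower quotient in TAC was shared by long regions in general. Over the 1352 regions of at least 1000 bp the median quotient was 1.95 (Veh/Sham), 2.06 (Iso) and 1.80 (TAC), and over the 10 clock regions of that length it was 2.70, 2.49 and 2.20. Among the regions of at least 1000 bp, mean signal was higher and peak depth lower in TAC than in Veh/Sham at 9.99% of all and at 2 of the 10 clock regions (20.0%). At the 767 regions of high Veh/Sham signal named above the share was 19.9%. The 2 clock regions were the Per1 promoter and the region 8213 bp upstream of Nr1d1. At the region 3818 bp upstream of Per1 the peak depths were 94, 138 and 125. Both quantities were higher in TAC than in Veh/Sham there, with a depth ratio of 1.33 (exact 95% counting interval 1.01 to 1.76). That interval holds the 1.43 of depths summed over all regions. Against Iso the TAC mean was higher and the depth lower, at a depth ratio of 0.91 (0.71 to 1.16). The Dbp promoter had its highest quotient in TAC, with 1.82, 1.63 and 2.10.

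**Figure D4:**
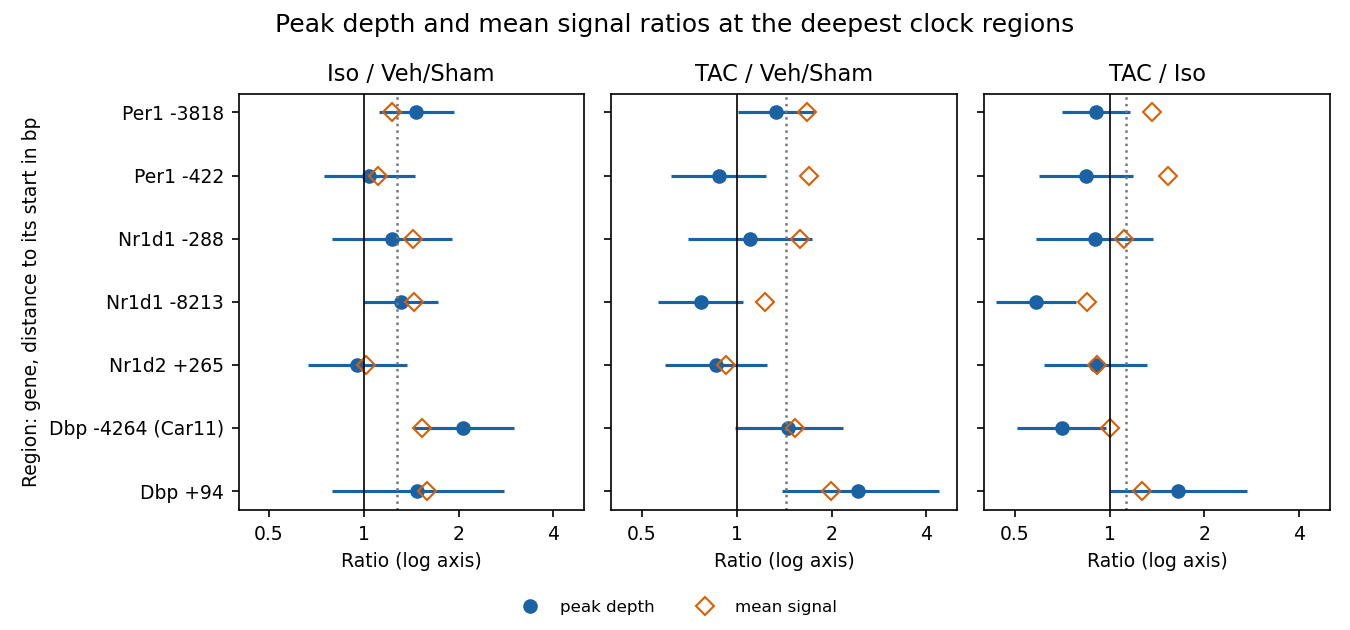
Ratios of peak depth (filled, with exact 95% counting intervals) and of mean signal with a pseudocount of 1 (open) at the 7 clock regions that reached a peak depth of 40 in some library; the axis is logarithmic and dotted lines mark depths summed over all regions (1.27, 1.43 and 1.125). In TAC over Veh/Sham the Per1 promoter lies at 0.88 by depth and 1.70 by mean.

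Other genes of the clock, listed by role, had a region in 26 of 31 cases, and each is given by its highest region. Of these 26 regions, 14 lay within 1000 bp of the gene's start. By the 1.5-fold rule, 5 of the 26 were higher in Iso than in Veh/Sham and 1 was lower, where 31.8% and 7.99% of all regions were. In TAC over Veh/Sham 6 were higher and 0 lower (50.2% and 4.18% of all regions), and in TAC over Iso 5 were higher and 2 lower (31.4% and 8.85%). Their median log2 ratios were 0.14, 0.36 and 0.22, against 0.30, 0.59 and 0.29 for all regions. Because each gene is given by its highest region, these are not like for like: in the tenth of all regions with the highest mean signal the medians were 0.27, 0.42 and 0.15.

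The highest Veh/Sham signals of that list were at ubiquitin ligase and kinase genes that act on clock proteins. Btrc, an F-box protein that targets PER, read 39.5 (Veh/Sham), 63.3 (Iso) and 64.5 (TAC) at its promoter (chromosome 19, 45363316 to 45364023). Fbxw11, its paralog, read 27.2, 24.7 and 29.3, and Gsk3a, a kinase, read 23.7, 31.6 and 24.7. The Gsk3a region lay 1514 bp upstream, with Erf and 9130221H12Rik also listed. In Iso, Wdr5 (27.0) read above Fbxw11, and in TAC, Tef (27.3) and Wdr5 (25.6) read above Gsk3a.

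Nfil3, a repressor that competes at D-boxes, had the highest Iso to Veh/Sham log2 ratio of that list, 1.64, with mean signals of 4.11, 14.9 and 7.56. Its peak depths were 7 and 19, a ratio of 2.71 with an exact 95% counting interval of 1.09 to 7.64. That interval holds the 1.27 of depths summed over all regions. Sirt1, a deacetylase, followed with 2.33, 6.56 and 9.78, and it was highest in TAC over Veh/Sham (log2 1.69), ahead of Nono (1.30). The lowest in Iso were Fbxl21 (log2 -1.03), with peak depths of 8 and 3, and Ciart, a repressor of CLOCK and BMAL1 (-0.35). The lowest in TAC were Ciart (-0.33) and Tipin (-0.33). Between TAC and Iso the highest were Fbxl21 (1.26) and Timeless (0.90) and the lowest Nfil3 (-0.89) and Hlf (-0.84). The regions of Sirt1, Nono, Fbxl21 and Hlf were called in none of the 3 libraries. That of Ciart lay 10868 bp from its start, with Mrps21 and C920021L13Rik also listed. That of Nono lay 9767 bp upstream, with Zmym3 also listed, and that of Hlf 35372 bp from its start.

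**Figure D5:**
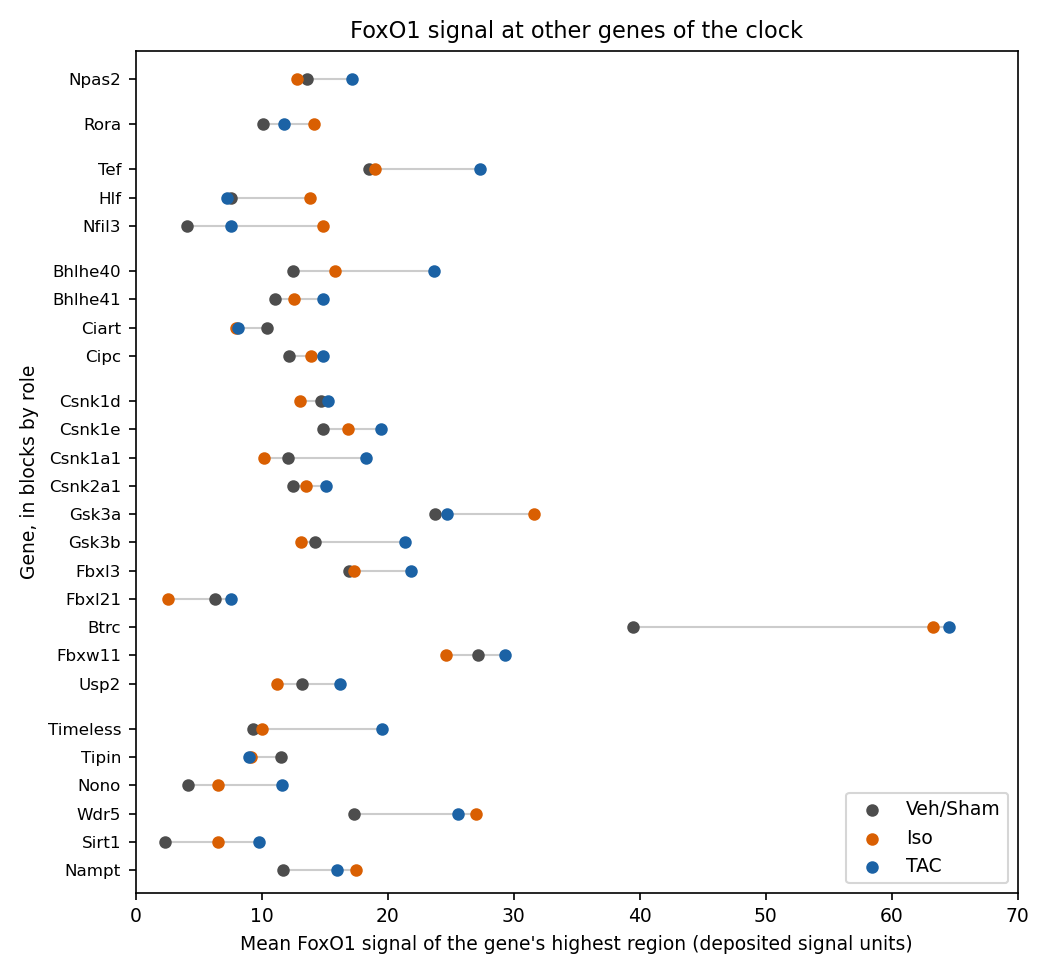
Mean FoxO1 signal (deposited units) of the highest region of 26 further clock genes in the 3 libraries, in blocks by role. Btrc stands above the others at 39.5, 63.3 and 64.5.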

How the data were processed

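FoxO1 ChIP-seq of mouse heart was read from 1 deposited table of regions merged over libraries. Per the file headers, it gives for each region and library the mean signal, the peak signal (whole numbers, called peak depth here), and whether an interval was called. The submitters' processing notes name mm10, BWA and SICER but give neither versions nor roles. How the signal was scaled between libraries, and whether the Drosophila spike-in entered it, is not stated in those notes or the headers, so a shift shared by all regions cannot be told apart from scaling. The table also held 6 columns of libraries that match no sample, which were not used. The input library was not analysed here.

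Members were matched by symbol in each region's gene list. Distances run from the midpoint of a region to the start site used in the table. Ratios were taken as log2 of mean signal plus a pseudocount of 1, and a region was counted as higher or lower at 1.5-fold, which is a rule of size and no test. Exact (Clopper-Pearson) 95% intervals were computed from pairs of peak depths. They treat the deposited peak signal as unscaled fragment counts and cover counting error only, not spread between hearts or libraries. Reads lacking molecular identifiers may be copies of 1 molecule, in which case the intervals are too narrow. A peak depth is also a maximum over a region, and it may lie at different positions in the 2 libraries. The total number of reads per library is not given in the table. Promoter windows and gene models came from RefSeq (GRCm38.p6). The interval calculation was tested on simulated independent counts. Those held no copied reads, no scaled signal and no maximum taken over positions, so the test does not bear on these.

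The members, the wider list of 31 genes and the rules were chosen with earlier results of these data known. All members were described with every region, and genes sharing their regions were named where they bear on position. Of the wider list, the 2 highest and 2 lowest ratios per comparison and the 3 highest Veh/Sham signals were named. The 3000 bp length, the peak depth of 40 and the 767 regions of high Veh/Sham signal were chosen after values were seen. Alternatives were peak depth in place of the mean, pseudocounts of 0.1 and 5, recentring on the median, called regions alone, a 2-fold rule, leaving out the lowest 25% of regions by signal, a 5000 bp distance and, added after seeing the data, regions nearest to the member. Intervals used scipy 1.17.1, tables pandas 2.3.3 with numpy 2.4.6, and plots matplotlib 3.10.9, under Python 3.11.15.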

Additional observations from a re-analysis of the deposited data

How the results depend on the processing

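No paired analysis was possible because each group has 1 library. The counts depended on the rule. Called regions and nearest regions are smaller sets than the 39 (27 for nearest), so counts alone do not compare them. Of the 25 regions called in any of the 3 libraries, 44.0% were higher in Iso than in Veh/Sham, against 46.2% of the 39. For TAC over Veh/Sham the share was 52.0%, against 61.5% of the 39. For TAC over Iso it was 16.0%, against 15.4%. Among nearest regions the 3 shares were 40.7%, 59.3% and 11.1%. The counts for called regions below use another set, regions called in at least 1 of the 2 libraries compared. Shares of all regions by the size rule are given only for the main rule and after recentring, not for the other settings. Of the 18 clock regions higher in Iso than in Veh/Sham, the count became 8 with a pseudocount of 5, 8 after recentring on the median of all regions, 9 among called regions, 6 by a 2-fold rule and 11 among regions nearest to the member. The 1 lower became 0 with a pseudocount of 5, by the 2-fold rule and among nearest regions, and 2 after recentring. For TAC over Veh/Sham, 24 higher became 6 after recentring, 13 among called regions and 9 by the 2-fold rule. The 1 lower became 2 by peak depth, 4 after recentring, and 0 with a pseudocount of 5, among called regions and by the 2-fold rule. For TAC over Iso, 6 higher became 3 with a pseudocount of 5, after recentring, by the 2-fold rule and among nearest regions, and 2 lower became 4 by peak depth, 4 after recentring and 1 by the 2-fold rule. Recentring moved the median log2 ratios to 0.23 (Iso over Veh/Sham), 0.12 (TAC over Veh/Sham) and -0.12 (TAC over Iso). Within 5000 bp of the member's start lay 20 regions in place of 12. By peak depth the log2 ratio at the Per1 promoter changed sign, to -0.19 for TAC over Veh/Sham and -0.24 for TAC over Iso. By peak depth TAC over Iso also fell below 0 at the region 3818 bp upstream of Per1 (from 0.44 to -0.14) and went from 0.00 to -0.50 at the Dbp region near Car11. At the region 8213 bp upstream of Nr1d1, TAC over Veh/Sham went from 0.30 to -0.38 and TAC over Iso from -0.23 to -0.77. The cause was not tested. Without replicates no difference can be set against biological spread, and regions with peak depths near 10 have counting intervals that span several-fold.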
